A study of Mus musculus with 14 samples.

Results

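The 43 genes described here mark the distal nephron and collecting duct of the mouse kidney. They were taken by name, as a list, and 43 of 43 were found among the 49943 genes that RefSeq places on chromosomes 1 to 19, X and Y of GRCm38.p6. By role, 8 belong to the thick ascending limb, 12 to the distal convoluted and connecting tubule, 9 to principal cells and 10 to intercalated cells, and 4 are transcription factors of these segments. For every library, the peaks and the bases they cover were counted within 3 kb of either end of each gene (gene-end cover) and over the gene itself (gene-body cover).

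The thick ascending limb takes up salt without water through the Na-K-2Cl cotransporter, and the distal convoluted tubule adds the thiazide-sensitive Na-Cl cotransporter, which is switched by the WNK, STK39 and KLHL3 proteins. The collecting duct holds principal cells, which move water through aquaporins and sodium through the epithelial sodium channel under vasopressin and aldosterone, and intercalated cells, which secrete acid or base through V-type proton pumps and anion exchangers. Crotonylation (H3K9cr) and acetylation (H3K9ac) of lysine 9 of histone H3 are both found at the start sites and the first kilobases of active genes, so the peaks of both marks report on which genes are open in the tissue as a whole.

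Chromatin immunoprecipitation sequencing (ChIP-seq) of these 2 marks was compared between WT and ACSS2-/- mice, with and without unilateral ureteric obstruction (UUO), in which a ureter is tied so that the kidney becomes inflamed and fibrotic. ACSS2 is an acyl-CoA synthetase that can make crotonyl-CoA, and it was deleted in the whole animal with CRISPR/Cas9, so that no cell type of the kidney was spared. C57BL/6J mice aged 6 to 8 weeks were used. The 4 groups (WT control, ACSS2-/- control, WT UUO and ACSS2-/- UUO) each had 2 H3K9cr libraries, and for H3K9ac the 2 UUO groups had 2 libraries and the 2 control groups 1. The tissue was kidney without sorting, so fewer cells of a type and less mark in each cell cannot be told apart in any value below.

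The lists hold peak positions and no height, and the number of peaks is the only sign of yield. The H3K9cr lists held 27530 to 45014 peaks that covered 29.4 to 64.6 Mb, and the H3K9ac lists held 15988 to 32760 peaks that covered 17.7 to 51.1 Mb. The first ACSS2-/- control library had the widest H3K9cr cover (64.6 Mb) and the second ACSS2-/- UUO library the narrowest (29.4 Mb). In 6 of the 14 lists, 3 of them of H3K9cr, there was no peak on chromosome Y. The deleted gene itself, Acss2, kept H3K9cr peaks of 913 to 2719 bp in the ACSS2-/- control libraries and of 799 and 1583 bp after UUO, against 1279 and 1334 bp in WT control. The mark at the ends of the gene does not measure the deletion.

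Sequences are shown for 7 start sites that carried the main patterns. Each is the 250 bases before the start, 5′ to 3′ on the strand of the gene, from RefSeq promoter windows of GRCm38.p6. Capitals mark matches, on either strand, to 5 motifs of factors known from tubule cells, namely the HNF1 core GTTAAT, the forkhead site TGTTTAC, the ERR core AAGGTCA, the GRHL site AACNGGTT and the TFCP2L1 site, a pair of CCAG boxes with 6 bases between them. The first pair comes from Egf, whose outer start (chr3:129755323-129755572, minus strand) lay in an H3K9cr peak in 4 of 4 control and 0 of 4 UUO libraries. Its inner start (chr3:129725087-129725336, minus strand) lies 30236 bp inside the gene and was in a peak in 4 of 4 and 4 of 4.
Egf outer start: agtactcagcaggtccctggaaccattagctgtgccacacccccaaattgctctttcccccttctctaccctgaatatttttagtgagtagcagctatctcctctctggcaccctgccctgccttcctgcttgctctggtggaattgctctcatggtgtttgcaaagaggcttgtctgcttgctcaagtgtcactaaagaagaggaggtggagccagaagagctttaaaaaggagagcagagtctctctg
Egf inner start: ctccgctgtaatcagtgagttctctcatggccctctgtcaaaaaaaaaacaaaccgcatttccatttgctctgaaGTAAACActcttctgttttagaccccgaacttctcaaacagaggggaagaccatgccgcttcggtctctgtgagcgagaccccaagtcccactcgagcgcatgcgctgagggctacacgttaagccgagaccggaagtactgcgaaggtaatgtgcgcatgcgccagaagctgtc
Fxyd4 (chr6:117937336-117937585, minus strand) was the member with H3K9cr within 3 kb of a gene end in every control and no UUO library. Its start was in a peak in 3 control libraries and 0 UUO libraries. The start of Aqp3 (chr4:41098184-41098433, minus strand) was in a peak in 4 control libraries and 1 UUO library.
Fxyd4: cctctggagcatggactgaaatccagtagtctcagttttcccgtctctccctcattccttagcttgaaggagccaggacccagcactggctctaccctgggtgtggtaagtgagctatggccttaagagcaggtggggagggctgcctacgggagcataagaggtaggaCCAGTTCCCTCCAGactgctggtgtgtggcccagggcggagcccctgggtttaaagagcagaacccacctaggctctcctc
Aqp3: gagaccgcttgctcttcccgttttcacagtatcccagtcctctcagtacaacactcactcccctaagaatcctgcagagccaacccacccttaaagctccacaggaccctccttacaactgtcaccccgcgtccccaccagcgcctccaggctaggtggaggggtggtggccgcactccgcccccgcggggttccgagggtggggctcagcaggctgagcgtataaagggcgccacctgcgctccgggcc
The starts of Tfcp2l1 (chr1:118627695-118627944, plus strand), Umod (chr7:119479263-119479512, minus strand) and Atp6v0a4 (chr6:38124587-38124836, minus strand) kept a peak in 4, 3 and 3 of the 4 UUO libraries.
Tfcp2l1: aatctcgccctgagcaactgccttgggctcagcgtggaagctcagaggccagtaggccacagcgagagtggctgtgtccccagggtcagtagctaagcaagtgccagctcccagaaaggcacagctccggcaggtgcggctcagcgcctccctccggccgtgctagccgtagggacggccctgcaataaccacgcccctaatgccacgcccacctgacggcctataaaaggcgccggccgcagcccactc
Umod: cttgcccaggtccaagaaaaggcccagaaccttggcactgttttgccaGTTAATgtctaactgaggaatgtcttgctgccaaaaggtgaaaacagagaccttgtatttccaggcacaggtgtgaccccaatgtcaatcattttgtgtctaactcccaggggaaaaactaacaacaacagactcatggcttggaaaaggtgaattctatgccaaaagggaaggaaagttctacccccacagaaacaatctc
Atp6v0a4: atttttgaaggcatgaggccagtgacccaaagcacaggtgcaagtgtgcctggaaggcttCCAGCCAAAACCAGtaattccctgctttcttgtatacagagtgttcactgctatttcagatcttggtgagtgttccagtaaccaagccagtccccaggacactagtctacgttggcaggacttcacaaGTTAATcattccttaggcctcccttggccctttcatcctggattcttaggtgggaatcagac
These 7 stretches hold 5 matches, none of which overlaps another. The 2 Egf starts are 50.4% and 52.0% G or C, near the median of 52.4% over all 32851 promoter windows.

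RefSeq gave promoter windows for 32 of the 43 members, 38 windows in all, with a median G and C content of 56.2%. The TFCP2L1 site was in 5 member windows (Atp6v0a4, Avpr2, Fxyd4, Ptger3 and Wnk1) and in 2.78% of all windows. The HNF1 core was in 4 (Atp6v0a4, Atp6v1g3, Kcnj16 and Umod), with 6.43% of all windows holding it. The forkhead letters were in 4 (Atp6v1b1, Avpr2, Egf at its inner start, and Slc12a1), with 3.17% of all windows. The ERR core (4.08% of all windows) and the GRHL site (1.79%) were each in 1, both of Kcnj16. These matches describe letters and not binding.

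H3K9cr was compared between UUO and control first. Of the 43 members, 13 had less H3K9cr gene-end cover in every UUO library than in every control library, and 0 had more. Over the 23157 genes with any H3K9cr at a gene end, 12.5% were lower in this way and 2.15% were higher. The 13 were Fxyd2, Egf, Kcnj1, Bsnd and Casr of the thick ascending limb, Wnk4, Klhl3, Kcnj16 and Trpv5 of the distal convoluted and connecting tubule, Fxyd4 of principal cells, Atp6v0a4 and Atp6v1b1 of intercalated cells, and the transcription factor Tfcp2l1. Mean cover was lower after UUO in 33 members, higher in 6, and 4 had no H3K9cr at a gene end. The median log2 ratio of UUO over control (100 bp added to each mean) was -0.73 over the 39 members with cover and -0.16 over all genes with cover.

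With 4 libraries a side the exact two-sided permutation test has 70 arrangements and cannot give less than 0.0286, which is the p of each of the 13. Adjusted over the 23157 genes it was 0.195, and 0 genes passed 0.05, although 3398 had an unadjusted exact p under 0.05. A model over all genes (limma on log2 cover) called 724 genes lower at an adjusted p under 0.05, 3.13% of those tested, and 5 members were among them: Egf, Klhl3, Fxyd4, Fxyd2 and Tfcp2l1. When cover was divided by the total covered length of the library, 5 members were lower (Egf, Klhl3, Fxyd4, Tfcp2l1 and Trpv5) and 4 higher (Wnk1, Scnn1a, Scnn1g and Hsd11b2), against 3.7% and 13.8% of all genes. The scaling moved the median of all genes from -0.16 to 0.25 and that of the members from -0.73 to -0.30, so the members lay 0.57 and 0.55 below all genes on the log2 scale.

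**Figure D1:**
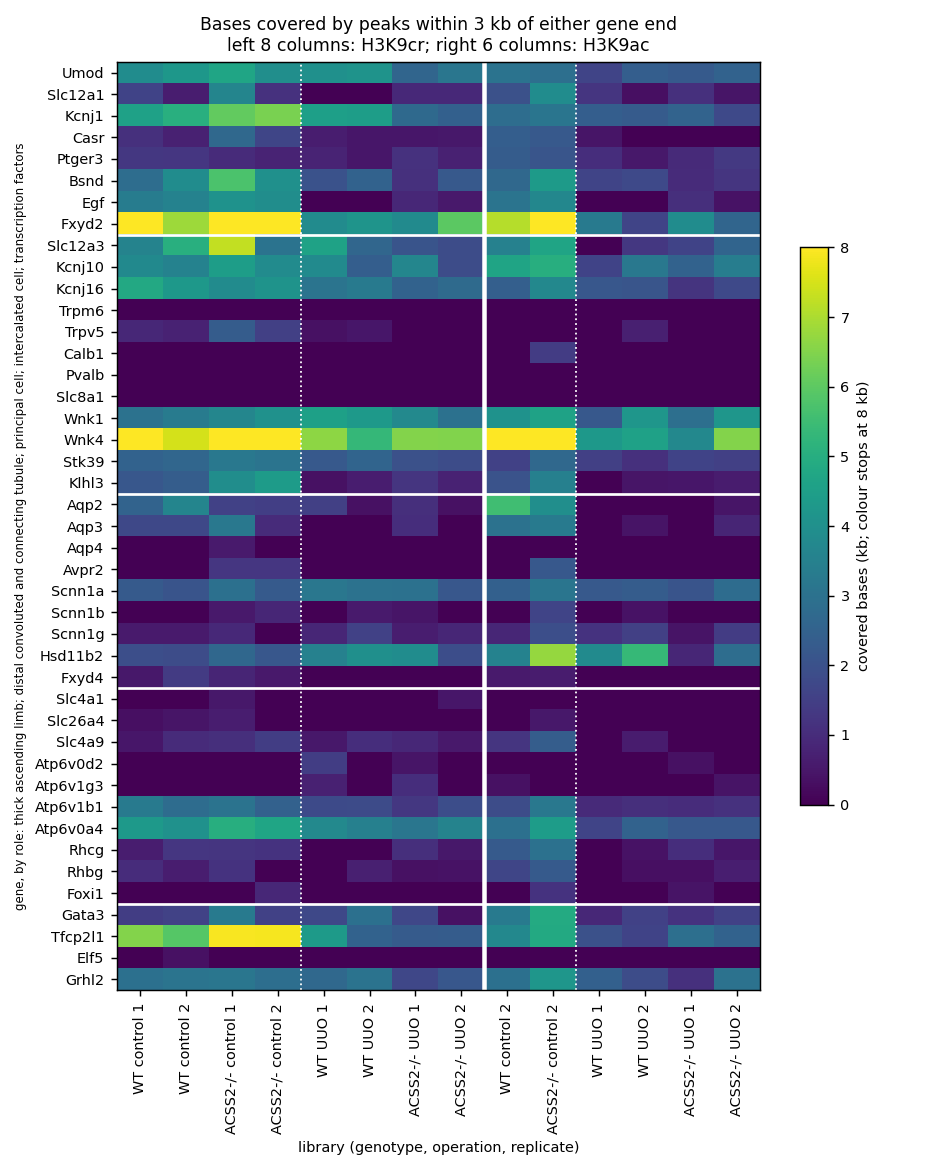
Gene-end cover in kb (colour) of the 43 members (vertical axis, grouped by role) in the 8 H3K9cr and 6 H3K9ac libraries (horizontal axis). Fxyd2, Wnk4 and Tfcp2l1 are the widest in control, Egf is dark in both WT UUO libraries, and Trpm6, Pvalb and Slc8a1 are at 0 in all 14.

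Of the thick ascending limb genes, 5 of 8 were lower without overlap, against 12.5% of all genes. The median log2 ratio of the 8 was -1.02. Egf encodes the precursor of epidermal growth factor. Its H3K9cr gene-end cover was 3361 and 3536 bp in WT control, 4079 and 3936 bp in ACSS2-/- control, 0 and 0 bp in WT UUO and 902 and 534 bp in ACSS2-/- UUO. All 4 UUO libraries lay far below the lowest control library, and both WT UUO libraries had no peak left at a gene end. The means were 3728 ± 336 and 359 ± 441 bp (SD, n = 4 each), a ratio of 0.0963, with an exact permutation p of 0.0286 and a limma adjusted p of 0.0206. The gene 6330410L21Rik also ends in the Egf window.

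Fxyd2, the gamma subunit of the sodium pump, was the widest of the segment, with 8957, 6814, 10730 and 9602 bp in control (WT first) against 3853, 4152, 3822 and 5998 bp after UUO. The lowest control library stood above the highest UUO library, a ratio of means of 0.494 with a limma adjusted p of 0.0364. Kcnj1, the apical potassium channel ROMK, had 4583, 5035, 6091 and 6378 bp in control and 4521, 4461, 2723 and 2468 bp after UUO, so that the higher WT UUO library missed the control range by less than 100 bp. The annotated start of Kcnj1 lies 5212 bp from a gene end. Within 3 kb of this start there was 0 bp in every control library and 895 bp in the first ACSS2-/- UUO library. Gm31755 also ends in the Kcnj1 window. Bsnd, the barttin subunit of the chloride channels, had 2874 to 5745 bp in control and 1095 to 2521 bp after UUO. Casr, the calcium-sensing receptor, had 730 to 2688 bp and 489 to 628 bp.

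The other 3 genes of the limb overlapped. Umod, which encodes uromodulin, had 3877, 4228, 4704 and 3949 bp in control and 4020, 4113, 2602 and 3144 bp after UUO, so only the ACSS2-/- UUO libraries lay below the control range (exact permutation p = 0.2). Slc12a1, the Na-K-2Cl cotransporter, had 629 to 3625 bp in control, no peak at a gene end in either WT UUO library, and 919 and 912 bp in ACSS2-/- UUO. Ptger3, a prostaglandin E2 receptor, had 803 to 1301 bp and 474 to 1149 bp.

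In the distal convoluted and connecting tubule, 4 of 12 were lower without overlap, against 12.5% of all genes. Another 4 had no H3K9cr at a gene end (Trpm6, Calb1, Pvalb and Slc8a1), and the median log2 ratio of the 8 with cover was -0.48. Wnk4, a kinase that regulates the Na-Cl cotransporter, was the widest, with 9326, 7481, 8423 and 8661 bp in control and 6642, 5323, 6502 and 6483 bp after UUO. The second WT UUO library (5323 bp) lay below the other three, which differed by less than 200 bp. Cntd1, Coa3 and Vps25 also end in the Wnk4 window. Scaled to the covered length of the library, the Wnk4 difference was -40 bp (exact permutation p = 0.943). Klhl3, the ubiquitin ligase adaptor that degrades WNK kinases, had 2187, 2372, 3931 and 4380 bp in control and 358, 642, 1219 and 760 bp after UUO. Both genotypes were lower after UUO, with a ratio of means of 0.231 and a limma adjusted p of 0.00433. Hnrnpa0 ends in the Klhl3 window. The annotated start of Klhl3 lies 9830 bp inside the gene, outside that window. Within 3 kb of this start the groups overlapped, with 2892, 3138, 3106 and 2808 bp in control and 3451, 2387, 1966 and 1529 bp after UUO.

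Kcnj16, a potassium channel subunit of the basolateral membrane, had 3852 to 4813 bp in control and 2520 to 3303 bp after UUO. Scaled in the same way, the Kcnj16 difference was -272 bp (exact permutation p = 0.629). Trpv5, the apical calcium channel, had 877, 758, 2333 and 1526 bp in control, 347 and 479 bp in WT UUO, and no peak in ACSS2-/- UUO. The Na-Cl cotransporter gene itself, Slc12a3, overlapped between groups, with 3569, 5032, 7263 and 3035 bp against 4606, 2638, 2066 and 1863 bp (exact permutation p = 0.143). Kcnj10, the partner of KCNJ16, and Stk39, the kinase that phosphorylates the cotransporter, had lower means that overlapped. Wnk1 had 3028 to 4055 bp in control and 2980 to 4545 bp after UUO, a ratio of means of 1.11.

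Principal cell genes gave 1 of 9 lower without overlap, near the 12.5% of all genes. Fxyd4, a sodium pump regulator of the collecting duct, had 512, 1399, 820 and 545 bp in control and 0 bp in each UUO library. It was the single member with a peak in all 4 control and no UUO library, which 0.725% of all genes showed, and its limma adjusted p was 0.0029. The same gene had H3K9ac of 580 and 621 bp in control and 0 bp in all 4 UUO libraries. Aqp2, the vasopressin-regulated water channel, had 2555, 3630, 1542 and 1471 bp in control and 1522, 348, 1064 and 354 bp after UUO, and a single WT UUO library (1522 bp) reached the ACSS2-/- control range. Aqp3, the basolateral water channel, had 1743, 1746, 3202 and 980 bp in control, and 1050 bp in 1 ACSS2-/- UUO library with 0 bp in the other three.

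Scnn1a and Hsd11b2 had higher means after UUO. Scnn1a, the alpha subunit of the epithelial sodium channel, had 2252, 2079, 2952 and 2267 bp in control and 3165, 3029, 2993 and 2157 bp after UUO. Hsd11b2, which protects the mineralocorticoid receptor from glucocorticoids, was the widest principal cell gene, with 1935, 1866, 2672 and 2168 bp in control and 3523, 3971, 3879 and 1892 bp after UUO. In both genes 3 of 4 UUO libraries lay above every control library and the second ACSS2-/- UUO library, the one with the least cover, did not (exact permutation p = 0.229 for Scnn1a and 0.114 for Hsd11b2). Without that library Hsd11b2 was 1631 bp higher after UUO, with an exact permutation p of 0.0286. Leaving out any other single library gave an exact permutation p of 0.114 to 0.229, so in unscaled bases the lower p rested on removing the library that differed. Scaled to the covered length of the library, with no library removed, Hsd11b2 was 1708 bp higher after UUO (exact permutation p = 0.0286). On that scale 13.8% of all genes were higher without overlap. Scnn1g, the gamma subunit, had 0 to 934 bp and 645 to 1560 bp, and Scnn1b, the beta subunit, 0 to 872 bp and 0 to 576 bp. Avpr2, the vasopressin receptor, had 1262 and 1260 bp in ACSS2-/- control and no H3K9cr in the other groups. Aqp4 had 581 bp at a gene end in 1 library, the first of ACSS2-/- control. Over its body it had 763 bp there and 752 bp in the first ACSS2-/- UUO library. The ends of Atp6v0d1 and Ltbr lie in the windows of Hsd11b2 and Scnn1a.

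Of the 10 intercalated cell genes, 2 were lower without overlap, against 12.5% of all genes. Both were V-type proton pump subunits. Atp6v0a4 had 4297, 4056, 5005 and 4696 bp in control and 3751, 3496, 3145 and 3579 bp after UUO, a ratio of means of 0.774, but scaled to the covered length of the library the mean was 209 bp higher after UUO. Atp6v1b1 had 3250, 2831, 3058 and 2487 bp in control and 1794, 1840, 1296 and 1906 bp after UUO, a ratio of 0.588. Both pairs of groups were close, and neither gene passed the limma threshold (adjusted p = 0.173 and 0.0592). Rhcg, an ammonia channel, had 646 to 1280 bp in control, no peak in WT UUO, and 1090 and 513 bp in ACSS2-/- UUO. Slc26a4, the anion exchanger pendrin, had up to 643 bp in 3 control libraries and no peak at a gene end after UUO. Over its body it had 348 and 328 bp in ACSS2-/- UUO. Slc4a1 and Foxi1 had a peak in 2 and 1 of the 8 libraries. Atp6v0d2 (1453 and 464 bp) and Atp6v1g3 (720 and 1048 bp), also proton pump subunits, went the other way. Each had a peak at a gene end in 2 of 4 UUO libraries, as detailed by the values above, and in 0 of 4 control libraries. Atp6v0d2 had 444 bp over its body in the second WT control library.

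Among the 4 transcription factors, Tfcp2l1, which directs intercalated and principal cell identity, had 6529, 5901, 7909 and 7903 bp in control and 4373, 2527, 2290 and 2313 bp after UUO. Every UUO library lay below every control library, the highest being a WT library, with a ratio of means of 0.407 and a limma adjusted p of 0.0421. No other gene ends in its window. Grhl2, an epithelial factor, had 2893 to 3146 bp in control and 1709 to 3062 bp after UUO. Gata3 had 1455 to 3287 bp and 368 to 2954 bp. Elf5 had 352 bp at a gene end in 1 library. Over its body it had up to 766 bp in control and 327 bp in the first ACSS2-/- UUO library.

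**Figure D2:**
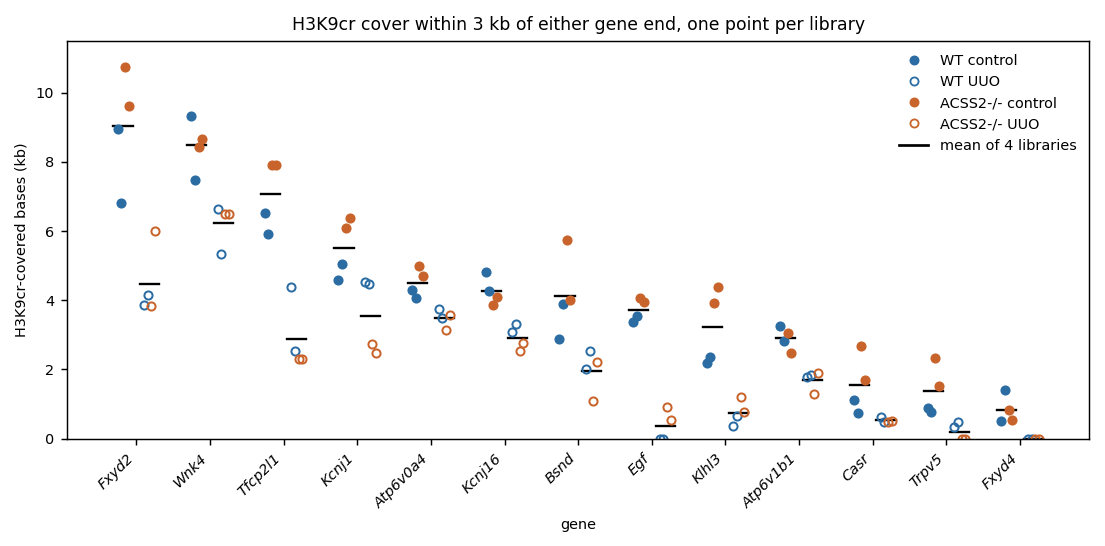
H3K9cr gene-end cover in kb (vertical axis) of the 13 members (horizontal axis) in the 4 control (filled) and 4 UUO (open) libraries, with WT in blue, ACSS2-/- in orange and black lines at the means. The gap is wide for Egf, Klhl3 and Tfcp2l1 and under 100 bp for Kcnj1.

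Over the gene bodies, 17 members had less H3K9cr in every UUO library than in every control library and 0 had more, against 13.6% and 2.44% of the 21568 genes with cover there. All 13 members named above were among the 17, and Slc12a3, Stk39, Scnn1a and Grhl2 joined them. Slc12a3 had 14870, 13727, 19273 and 15259 bp over its body in control and 7608, 4814, 4929 and 5212 bp after UUO, although its ends overlapped. Scnn1a had 5082 to 8633 bp over its body in control and 2876 to 4611 bp after UUO, the opposite order to its ends. Tfcp2l1 had 16294 to 24497 bp and 4646 to 7896 bp, and Casr had 5734 to 9070 bp and 1764 to 2979 bp. For every one of these 4 genes the lowest control library stood above the highest UUO library, each at the smallest exact permutation p of 0.0286.

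The position of the peaks was read along the 32 members with an annotated start, each taken at its outermost one. At 0.5 kb into the gene, 17 to 24 members had H3K9cr in the control libraries and 14 to 17 in the UUO libraries. At 2 kb it was 9 to 15 and 5 to 9, and at 5 kb it was 3 to 5 and 0 to 2. As mean shares these were 61.7% and 47.7% at 0.5 kb, 35.1% and 19.5% at 2 kb, and 13.3% and 3.91% at 5 kb. All genes of the promoter table gave 37.9% and 37.0%, then 7.33% and 5.34%, then 3.73% and 2.59%, so cover deep in the gene was more common among the members than among all genes in the control libraries. H3K9ac gave 68.8% and 46.9% of members at 0.5 kb, 50% and 17.2% at 2 kb, and 20.3% and 2.34% at 5 kb. All genes gave 39.1% and 33.4%, 11.0% and 4.84%, and 4.0% and 1.51%.

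**Figure D3:**
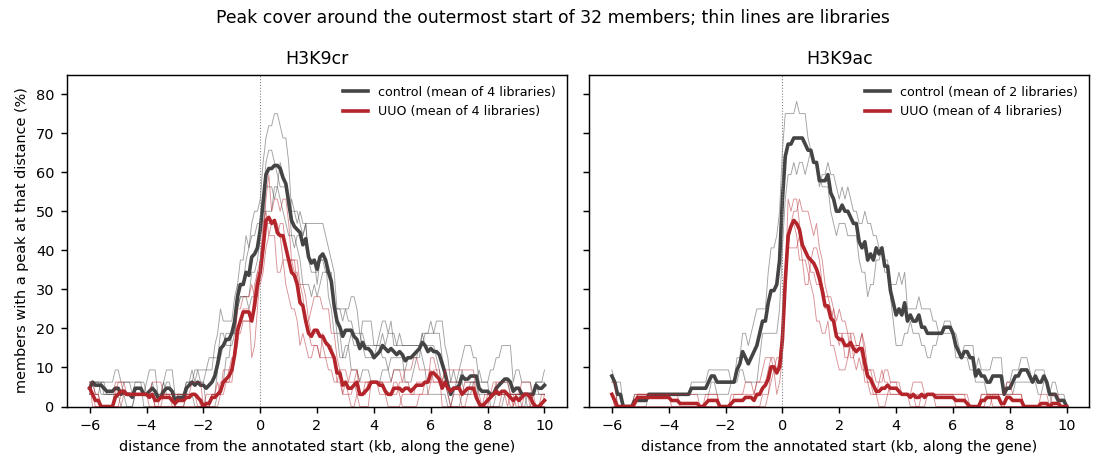
Share of 32 members with a peak (%, vertical axis) by distance from the outermost annotated start (kb, horizontal axis), for H3K9cr (left) and H3K9ac (right), with control libraries in grey, UUO in red and means in bold. The control curves extend several kb into the genes, and the UUO curves lie lower there in both marks.

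The start windows themselves (250 bases before and 50 after the start) differed less between the groups. In the control H3K9cr libraries 13 to 21 of the 32 members had a start in a peak, and in the UUO libraries 11 to 15, ranges that overlap. Of all promoter windows, 39.1% to 43.2% were in a peak in control and 37.7% to 42.1% after UUO. The outer Egf start (4 control, 0 UUO libraries), Ptger3 (3 and 0), Fxyd4 (3 and 0) and Aqp3 (4 and 1) were the largest differences. The starts of Tfcp2l1, Wnk4, Wnk1, Stk39, Atp6v1b1 and Kcnj16 were in a peak in all 8 libraries, although 4 of these 6 genes had less cover in every UUO library. Starts far inside a gene escape the gene-end windows. Trpm6, a magnesium channel with no peak at a gene end, had H3K9cr in all 8 libraries at a start 19553 bp inside it, and Klhl3 at a start 9830 bp inside it, while other genes also end within 3 kb of both sites (Gm41814 for Trpm6, Gm33389 and Gm52040 for Klhl3). No other gene ends within 3 kb of the inner start of Egf.

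H3K9ac was lower in every UUO library than in both control libraries in 23 members and higher in 0, against 43.2% and 0.355% of the 20542 genes with H3K9ac cover, which 37 members had. Scaled to the covered length of the library, 12 members were lower and 2 higher (Wnk1 and Scnn1a), against 7.91% and 25.5% of all genes. The median log2 ratio of the members was -1.28, and that of all genes -0.60. The 2 control libraries were 1 of each genotype, and the exact permutation test cannot give less than 0.0667 with 2 against 4. Members lower in both marks numbered 12 of the 36 with cover of both, the 13 named above without Trpv5, against 9.94% of the 19696 genes with both. Aqp2 had 5550 bp in WT control and 3964 bp in ACSS2-/- control, then 0, 0, 0 and 458 bp after UUO. Egf had 3075 and 3704 bp, then 0, 0, 1080 and 388 bp, and Casr had 2399 and 2230 bp, then 459, 0, 0 and 0 bp. Umod, which overlapped in H3K9cr, had 3055 and 2934 bp, then 1646, 2403, 2279 and 2519 bp. All 8 thick ascending limb genes were lower in H3K9ac, as were 5 of 12, 3 of 9, 5 of 10 and 2 of 4 of the other roles in the order above, but scaled only Egf and Casr of the limb were lower without overlap. In limma 1 member passed an adjusted p of 0.05, Fxyd4 (0.00454).

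Within the groups, H3K9cr covered more bases than H3K9ac in every group in 4 members (Atp6v0a4, Kcnj16, Stk39 and Umod), which 5.15% of all genes showed, and H3K9ac covered more in 0 members, against 1.82%. Umod had a mean of 3830 bp of H3K9cr over 8 libraries and 2473 bp of H3K9ac over 6, and every H3K9cr library of a group lay above every H3K9ac library of it. The exact permutation p within groups was 0.00309, the smallest it can give, and 0.0587 after adjustment over 24003 genes. H3K9cr was at a gene end in all 8 libraries in 22 members, in some in 17 and in none in 4. H3K9ac was in all 6 libraries in 19 members and in none in 6. Calb1, a calcium buffer of the connecting tubule, had H3K9ac of 1433 bp in the ACSS2-/- control library and no H3K9cr at its ends.

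**Figure D4:**
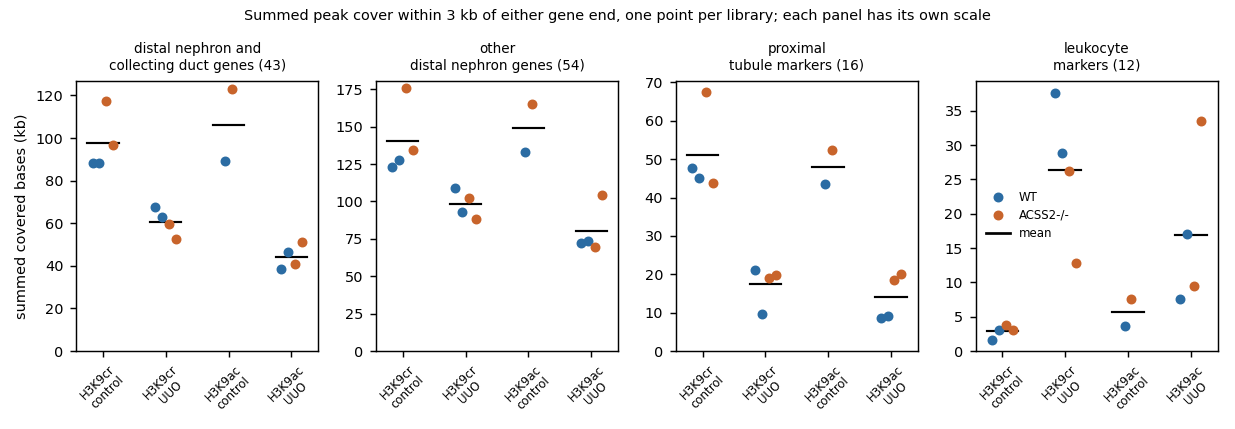
Gene-end cover in kb summed over each list (vertical axis, 1 scale a panel) in control and UUO libraries of both marks (horizontal axis), with WT in blue, ACSS2-/- in orange and black lines at the means. For H3K9cr the 43 genes sit at 88.1 to 117 kb in control and 52.6 to 67.6 kb after UUO, the proximal tubule markers lie lower after UUO too, and the leukocyte markers higher.

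Genotype was compared within operation. In both control and UUO, Egf and Klhl3 had more H3K9cr in the ACSS2-/- libraries than in the WT libraries, and Kcnj16 had less, against 2.82% and 1.13% of all genes. Klhl3 had 2187 and 2372 bp in WT and 3931 and 4380 bp in ACSS2-/- control, and 358 and 642 bp in WT and 1219 and 760 bp in ACSS2-/- UUO. Kcnj16 had 4813 and 4278 bp against 3852 and 4103 bp in control, and 3090 and 3303 bp against 2520 and 2766 bp after UUO. The exact permutation test within operation cannot give less than 0.0556, the p of all 3 genes, and limma called 0 members (adjusted p = 0.85 for each of the 3), with 5 at an unadjusted p under 0.05 (Avpr2, Egf, Klhl3, Rhcg and Slc12a1).

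In control kidneys 17 of the 39 members with cover had more H3K9cr in both ACSS2-/- libraries and 3 had less (Aqp2, Kcnj16 and Ptger3), against 34.4% and 4.47% of all genes. After UUO 4 had more (Egf, Klhl3, Rhcg and Slc12a1) and 11 had less, against 7.17% and 22.4%. The ACSS2-/- control libraries held more peaks than the WT control libraries (45014 and 37456 against 32945 and 36485), and after UUO the ACSS2-/- libraries held 35638 and 27530 against 36734 and 30406. At a gene end, Egf, Rhcg and Slc12a1 had no peak in either WT UUO library and a peak in both ACSS2-/- UUO libraries. Over its body Egf had 868 and 1193 bp in WT UUO and 2225 and 1141 bp in ACSS2-/- UUO, which overlap. Slc12a1 had 361 bp over its body in the second WT UUO library. With 2 libraries against 2 the counts and values of this paragraph carry no test.

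**Figure D5:**
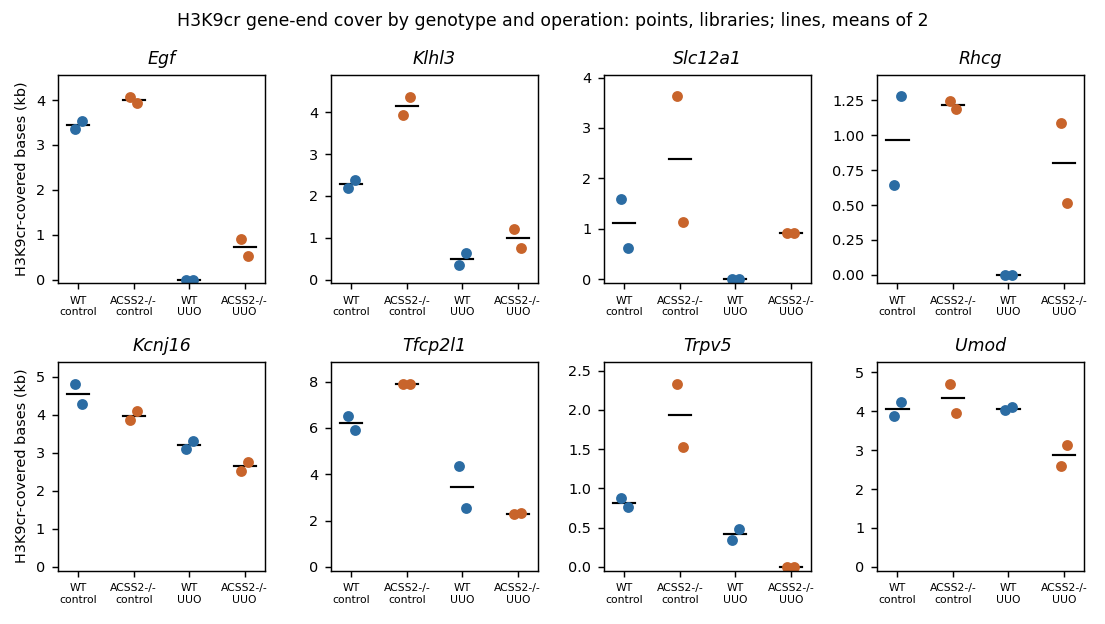
H3K9cr gene-end cover in kb (vertical axis, 1 scale a panel) of 8 members in the 4 groups (horizontal axis), with points for libraries and black lines for means of 2. Egf, Slc12a1 and Rhcg are at 0 in WT UUO and above 0 in ACSS2-/- UUO, whereas Trpv5 is at 0 in ACSS2-/- UUO.

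Taken by genotype, H3K9cr was lower after UUO without overlap in 19 members in WT and higher in 5 (Gata3, Hsd11b2, Scnn1a, Scnn1g and Wnk1), against 22.1% and 20.9% of all genes. In ACSS2-/- it was lower in 24 members and higher in 0, against 45.2% and 4.81%. The difference between these changes was tested by permuting genotype within operation, and 6 members (Kcnj1, Trpv5, Wnk1, Stk39, Scnn1a and Tfcp2l1) reached the smallest exact p of 0.0556, as did 8.54% of all genes. In each of the 6 the cover was reduced more, or increased less, in ACSS2-/-. The same direction was found in 26 of the 39 members with cover and in 17991 of the 23157 genes with cover. The limma interaction passed an adjusted p of 0.05 in 3 members, against 1.32% of all genes: Trpv5 (0.0145) and Avpr2 (0.00536), with the greater loss in ACSS2-/-, and Egf (0.0272), with the greater log2 loss in WT. All 3 include libraries with no peak at a gene end, where the log2 change depends on the 100 bp added.

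The other distal nephron genes of a wider list of 54 gave 14 lower and 0 higher in H3K9cr after UUO, against 12.5% and 2.15% of all genes. Their median log2 ratio was -0.42 over the 50 with cover. The widest differences were in Ppp1r1a (4967, 6001, 6376 and 5473 bp in control; 1496, 896, 1419 and 1974 bp after UUO), the developmental factors Pax2 (mean 4950 and 2240 bp) and Pou3f3 (7180 and 4720 bp), and the kallikrein gene Klk1 (3240 and 585 bp). All 4 were lower in every UUO library than in every control library.

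Markers of other cells moved with UUO in the same libraries. The shares over all genes with cover were 12.5% lower and 2.15% higher without overlap. Of 16 proximal tubule markers, 11 were lower without overlap and 0 higher, with a median log2 ratio of -1.78 and a summed cover of 43.9 to 67.5 kb in control and 9.79 to 21.1 kb after UUO. Of 12 leukocyte markers, 0 were lower and 5 higher (C1qa, C1qb, C1qc, Ptprc and Tyrobp), with a summed cover of 1.69 to 3.73 kb and 12.8 to 37.6 kb. At a gene end, 10 of the 12 had no H3K9cr in any control library. Injured tubule markers gave 1 of 8 higher (Lcn2) and a sum of 9.85 to 12.9 kb against 9.69 to 20.2 kb, and stroma markers gave 0 of 9, with 2.28 to 6.93 kb against 3.88 to 13.7 kb. Endothelial markers gave 2 of 7 lower (Cdh5 and Kdr), with 8.1 to 19.5 kb against 4.15 to 10.7 kb, and podocyte markers 0 of 6, with 5.81 to 10.4 kb against 5.69 to 7.65 kb and with Nphs1 at 0 throughout. The part of these shifts in the members' lower cover was not tested. Summed over the 43 members, H3K9cr cover was 1817 to 2115 bp for each Mb that the library covered in control and 1501 to 1800 bp after UUO. By role, only the thick ascending limb genes did not overlap on this scale (584 to 663 and 346 to 561 bp). The other distal nephron genes overlapped too (2618 to 2950 and 2450 to 3001 bp).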

How the data were processed

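H3K9cr and H3K9ac ChIP-seq peaks of mouse kidney were used as the authors deposited them, 1 list of positions per library with no score, height or strand. Per the methods and labels, reads with adapter, unread bases or low quality were removed, and the rest were aligned with Bowtie2 to mm10, cleared of organelle reads, poorly mapped reads and duplicates, and called per library with MACS2 at a q-value threshold of 0.05. Tool versions and the MACS2 control are not given in the sources used here. ChIPseeker, which the labels also name, was not needed. Read depth is unknown, so longer or more peaks can come from deeper sequencing.

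Gene positions and promoter sequences came from RefSeq GRCm38.p6, the patched form of mm10. Bases covered within 3 kb of both gene ends and over gene bodies were counted in Python 3.11.15 (numpy 2.4.6, pandas 2.3.3), and 0 of 500 spot checks differed from bedtools 2.31.1. Groups came from the labels. Libraries were compared gene by gene with exact two-sided permutation tests (genotype within operation, marks within groups), Benjamini-Hochberg adjustment over all genes with cover, and limma 3.58.1 in R 4.3.3 on log2(cover + 100 bp) as an alternative. A gene is called lower or higher where the libraries of the groups do not overlap. The labels number the libraries of a group without saying whether each number is a separate animal, so p-values measure the spread between libraries, which may be technical. The study states that H3K9ac was profiled in the samples used for H3K9cr, but the numbers do not settle which H3K9ac library shares a sample with which H3K9cr library. The code was tested on simulated data.

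The 43 members, their roles and the other gene lists were chosen with earlier results of these data known. Named were all members without overlap in H3K9cr after UUO, the widest member of each role, and others by range. Additional members, the genes plotted by genotype and the printed start sites were picked after their values were seen. Of the wider list of 54 genes, the 4 with the largest differences were named. In 4 lists the sample number inside the peak names differs from the replicate number in the label, and the label was used.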

Additional observations from a re-analysis of the deposited data

Results flagged for a closer look

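Dixon's criterion was applied to 45 sets of 4 values, from the control H3K9cr, the UUO H3K9cr and the UUO H3K9ac libraries. In 6 sets 1 library lay far from the rest, and all 6 were UUO sets. Chance gives about 1 in 20 for continuous values of 1 group, whereas these sets hold 2 libraries of each genotype. In H3K9cr these were Wnk4 (5323 bp in the second WT library, the lowest), Tfcp2l1 (4373 bp in the first WT library, the highest), Casr (628 bp in the first WT library, the highest) and Fxyd2 (5998 bp in the second ACSS2-/- library, the highest). In H3K9ac they were Trpv5 (692 bp in the second WT library) and Casr (459 bp in the first WT library), each with 0 bp in the other three, where any value above 0 meets the criterion. The 4 H3K9cr values all still lay below the lowest control library.

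The UUO change differed between genotypes in 3 members by the limma interaction with an adjusted p under 0.05. The ACSS2-/- change minus the WT change was -3.47 on the log2 scale in Trpv5, whose cover was 0 bp in both ACSS2-/- UUO libraries and 347 and 479 bp in WT UUO. It was -3.77 in Avpr2, which had 1262 and 1260 bp in ACSS2-/- control and 0 bp in the 6 other libraries. It was 2.78 in Egf, with 0 and 0 bp in WT UUO and 902 and 534 bp in ACSS2-/- UUO. The exact permutation p of the same difference in bases was 0.0556 in Trpv5, 0.333 in Avpr2 and 0.889 in Egf.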

How the results depend on the processing

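In brackets is the share of all genes with cover. The count of members with lower H3K9cr gene-end cover in UUO, 13 (12.5%), was 8 (8.33%) when each library was limited to its 15988 longest peaks, 5 (3.7%) when scaled to the covered length of the library, 3 (1.86%) by number of peaks, 5 (3.13%) in limma and 1 by presence in all 4 control and no UUO library, with either overlap rule (0.725% and 0.669%). It was 24 (45.2%) in ACSS2-/- libraries alone. Of the alternatives chosen after seeing the data, it was 22 (41.4%) in the 3 libraries without chromosome Y peaks and 17 (22.2%) in the 5 with them. Also chosen then, it was 3 (2.5%) with the longest peaks scaled to their total length and 9 (12.7%) around annotated start sites. It was 7 when only members whose windows hold no end of another gene were counted. They are a smaller set than all members, so 7 cannot be read against 13 as a loss. The all-gene share for it, 12.5%, was not limited in that way. Leaving out 1 library gave 13 to 16 (13.2% to 18.8%). For gene bodies, 17 (13.6%), the counts were 11 (8.79%) with the longest peaks, 11 (6.54%) when scaled, 9 (5.83%) in limma, and 17 to 21 (14.2% to 19.2%) with 1 library left out. For H3K9ac, 23 (43.2%), they were 12 (7.91%) when scaled, 5 (6.06%) by number of peaks, 1 (3.36%) in limma, and 23 to 34 with 1 library left out, 34 without the WT control library, where 78.5% of all genes were lower.

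For genotype, 3 (3.95%), the count was 1 with the 1 kb window (3.53%), the longest peaks (3.61%), scaling (3.75%) or the longest peak (3.83%), 0 by number of peaks (0.298%) and in limma (0.0389%, with 5 members at an unadjusted limma p under 0.05), 20 (38.9%) in control libraries alone and 15 (29.6%) in UUO libraries alone. Leaving out 1 library gave 3 to 5, with 5 without the first ACSS2-/- control library (7.79%) or the second WT UUO library (6.78%). For the marks, 4 (5.15%), it was 2 (4.73%) with the 1 kb window, 0 (2.27%) when scaled, 1 (4.03%) by the longest peak and 1 (0.75%) by number of peaks, and 4 to 5 with 1 library left out. For the difference between the UUO changes, 6 (8.54%), it was 3 (6.12%) with the longest peaks, 3 (7.53%) when scaled and 3 (1.32%) in limma, and 3 to 9 with 1 library left out, the low value (6.3%) without the first WT control library. The cause of these shifts was not tested.

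Same-numbered H3K9cr libraries did not deviate together (correlations of -0.076 to 0.069 over 6 pairs of groups, across genes). A shared shift across genes was not seen, but this cannot exclude that libraries of the same number were handled together. Between the marks the correlation was 0.02 in WT UUO and -0.141 in ACSS2-/- UUO. With a replicate block limma gave 3 members (1.95% of all genes) for H3K9cr ends, 7 (4.78%) for bodies and 1 (1.58%) for H3K9ac. It gave 0 (0.0173%) for genotype, with 4 members unadjusted, 3 (5.04%) for the marks and 1 (0.95%) for the difference between changes. Permutation within the replicate block gave 16 (16.3%), 19 (16.8%) and 6 (6.97%) for ends, bodies and marks, and 5 (8.23%) for the marks with the ACSS2-/- UUO numbers crossed, a pairing chosen after seeing the data.

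Of 182 single-gene values under alternatives, 127 kept their direction and side of 0.05, 50 lost the threshold, 2 gained it and 3 reversed. Atp6v0a4 was 209 bp higher after UUO when scaled and 0.5 peaks higher by number, and Fxyd2 was 0.5 peaks higher by number. Fxyd4 had no peak among the longest ones. Kcnj1 lost the threshold in 4 of 5 alternative measures and Egf in 0 of 5. With 4 libraries a side and depth unknown, differences under the spread of libraries were not detectable.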
